A study of Mus musculus with 15 samples.

Results

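The comparison described here is between generation 3 mouse embryonic fibroblasts (MEFs) that carry the p53 change N236S on both alleles, called G3TM, and generation 3 MEFs with wild-type p53, called G3DM. It takes in the 3 G3TM and the 2 G3DM libraries, 5 of the 15 libraries of the series, chosen by their labels. Both groups are homozygous for the loss of mTR (Terc), which encodes the template RNA of telomerase, and of Wrn (the helicase lost in Werner syndrome), so the p53 alleles are what the labels set apart. Mice without telomerase lose telomere length over successive generations, and generation 3 lies between the generations 1 and 5 that the series also holds. The fibroblasts came from embryos of day 13.5 and were kept at 37 °C under 5% CO2 and 3% O2, in DMEM that held 10% fetal bovine serum. RNA was taken with TRIzol, and libraries of polyadenylated RNA were made with a NEBNext Ultra kit. The labels number the samples of a group without saying whether they came from separate embryos, so the p-values below measure the spread between these samples, which may be technical. The series is titled for DREAM, MMB and the replication of telomeres, and the comparison asks how the p53 change alters expression when telomeres have been without telomerase for several generations.

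p53 is a transcription factor that cells stabilise when DNA is damaged or telomeres lose their caps. It switches on genes that stop the cell cycle, repair DNA or kill the cell, and Mdm2, one of its own targets, marks p53 for destruction. One target, Cdkn1a, encodes an inhibitor of cyclin-dependent kinases. When these kinases are held back, the DREAM complex sits on the promoters of cell cycle genes and keeps them silent, and when the kinases are active its MuvB core joins B-Myb (Mybl2) and FoxM1 in an activating form, MMB, that drives genes of G2 and mitosis. E2F factors drive the genes of G1/S and DNA replication.

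The deposited values are FPKM, in which fragments are divided by gene length and by the size of the library. Differences are G3TM minus G3DM on the log2(FPKM + 1) scale, given with their standard error (SE), and a gene is said to have risen or fallen, or to be called, where limma's two-sided p, adjusted by the Benjamini-Hochberg method over all genes tested, lay under 0.05. The table holds 54495 genes, and the test took in the 11878 that reached 1 FPKM in 2 or more of the 5 libraries. Read numbers recovered from the FPKM steps totalled 26292651, 18248823 and 18146537 in G3TM replicates 1, 2 and 3, and 20643624 and 19594297 in G3DM replicates 1 and 2. All 40 genes of a list of fibroblast and matrix genes were above 0 in every library, with a summed level of 8342 to 9308 FPKM in G3TM and 12858 to 15629 FPKM in G3DM, and no erythroid marker reached 1 FPKM in any of the 5.

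Some libraries stood apart before any comparison was made. Xist was listed at 0 in the 3 G3TM libraries and measured 3.04 and 3.36 FPKM in G3DM, and 4 Y-linked genes summed to 2.4 to 4.52 FPKM in G3TM and to 0 in G3DM, so genotype and sex are confounded in generation 3 and cannot be told apart. The 6 libraries of G3TM and G5TM differed from the other 9 of the series in a set of transcripts. Rrp1, for example, measured 73.5 to 102 FPKM in the 6 and 0.780 to 1.67 FPKM in the 9, and the mitochondrial ribosomal RNA mt-Rnr2 measured 44.7 to 73.6 FPKM in the 6 and 1.48 to 3.76 FPKM in the 9. The comparison of generation 3 runs across that division, which cannot be told apart from genotype here. Beside the median of each gene list below stands that of generation 1, whose TM and DM libraries lie on one side of it. Within G3TM, replicate 1 differed from replicates 2 and 3, as described further on.

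The targeted genes give a limited check of the labels. Wrn (chromosome 8, 33234384 to 33385527) measured 0.165, 0.0447 and 0.13 FPKM in G3TM and 0.0824 and 0.0886 FPKM in G3DM, too low to be tested. Terc (chromosome 3, 96414437 to 96414859), whose RNA lacks a poly(A) tail, was listed at 0 in all 5 libraries. Trp53, the gene of p53 (chromosome 11, 69580359 to 69591873), measured 52.1, 95.5 and 96.6 FPKM in G3TM and 51.4 and 51.4 FPKM in G3DM. All 3 G3TM libraries lay above both G3DM libraries, replicate 1 by very little, and the difference of 0.60 ± 0.31 (SE) did not pass (adjusted p = 0.17, limma). FPKM values do not show the N236S change itself.

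Expression differed widely between the genotypes. Of the 11878 genes tested 3940 were called (33.2%), 2278 of them higher (19.2%) and 1662 lower (14%) in G3TM, and 5524 had an unadjusted p under 0.05. None of the called genes overlapped between the groups. Over all genes tested, the 3 G3TM libraries lay above both G3DM libraries for 4094 (34.5%) and below both for 3364 (28.3%). Of the called genes 2292 differed by more than 1 log2 unit, 1472 higher and 820 lower. The number of calls moved with single libraries, to 7003 without G3TM replicate 1, 2528 without G3TM replicate 2, 1953 without G3TM replicate 3, 938 without G3DM replicate 1 and 525 without G3DM replicate 2. A fit without a G3DM library rests on 1 control, which is assumed to vary like the G3TM libraries. Since no called gene overlapped between the groups, leaving out a library could not change its sign, so the absence of sign changes is no check. The share of higher among the called genes depended on scaling: it was 57.8% as deposited, 49.8% after quantile normalization and 38.9% when every library was given the same total over protein-coding genes. That last scaling moved the median difference of all tested genes to −0.25, against 0.06 as deposited, so small differences have no fixed sign.

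Many genes activated by p53 were lower in the mutant. In a list of 18 p53 targets for arrest and feedback, all of which passed the filter, 8 fell, none rose (2 were higher at an unadjusted p under 0.05, limma) and 10 did not pass, with a median difference of −0.73 against 0.06 over all genes tested. In a list of 14 targets for cell death, all tested, 9 fell and 1 rose (median −0.98). In a list of 18 targets for metabolism and repair 15 were tested, of which 7 fell and 2 rose (median −0.24). Where a list here or below is said to have no rise or no fall, voom on the recovered reads called none in that direction either, except 1 rise each in the skeletal muscle and cholesterol lists. Without G3TM replicate 1, 1 arrest gene and 2 death genes rose. Between the TM and DM groups of generation 1 the medians of these lists were −1.32, −1.09 and −1.03.

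Cdkn1a (chromosome 17, 29090976 to 29100727) measured 6.13, 29.6 and 16.2 FPKM in G3TM and 168 and 180 FPKM in G3DM. The G3TM libraries differed among themselves by more than the 2 G3DM libraries did, with replicate 1 the lowest, and the groups were far apart. Its difference was −3.50 ± 0.55 (SE, adjusted p = 0.006, limma). Ccng1 (chromosome 11, 40748552 to 40755311), which encodes cyclin G1, a partner in the control of Mdm2, measured 9.87, 4.89 and 3.94 FPKM in G3TM and 80.9 and 123 FPKM in G3DM. Here replicate 1 was the highest of the G3TM libraries, and the difference of −3.88 ± 0.37 (SE, adjusted p = 0.0019, limma) was the largest fall of the list. Mdm2 (chromosome 10, 117688875 to 117710758) measured 7.79, 2.33 and 2.88 FPKM in G3TM and 16.4 and 27.1 FPKM in G3DM, a difference of −2.19 ± 0.44 (SE, adjusted p = 0.012, limma). The groups did not overlap, and without G3DM replicate 2 the fall did not pass (adjusted p = 0.101, limma). Zmat3, an RNA-binding splicing regulator, was even within each group, at 3.75, 3.08 and 4 FPKM in G3TM and 24.8 and 29 FPKM in G3DM (−2.60 ± 0.19, SE).

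Among the death genes Perp, a cell junction protein needed for p53-driven apoptosis, measured 3.47, 0.661 and 0.742 FPKM in G3TM and 25 and 33.6 FPKM in G3DM. Its difference was −3.68 ± 0.44 (SE, adjusted p = 0.003, limma), with replicate 1 nearest to G3DM. Eda2r, a death receptor of the TNF family, measured 0.2, 0.265 and 0.134 FPKM in G3TM and 5.5 and 8.97 FPKM in G3DM (−2.75 ± 0.22, SE). Pmaip1, which encodes the BH3-only protein Noxa, measured 1.72, 0.488 and 1.09 FPKM in G3TM and 9.42 and 8.28 FPKM in G3DM. These genes did not overlap between the groups. One member ran the other way: Bax, which opens the outer mitochondrial membrane, measured 102, 181 and 166 FPKM in G3TM and 61.7 and 63.7 FPKM in G3DM, a rise of 1.2 ± 0.29 (SE, adjusted p = 0.022, limma). Bbc3, which encodes the BH3-only protein Puma, measured 8.89, 20.1 and 8.18 FPKM in G3TM and 7.27 and 6.66 FPKM in G3DM and did not pass. Bax and Bbc3 were picked out after their values were seen, and the rise of Bax was called without G3TM replicate 1 and in none of the other 4 fits that left out a library (adjusted p 0.057 to 0.15, limma). The count of falling death genes was 5 without G3DM replicate 1 and 4 without G3DM replicate 2.

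Of the metabolic and repair targets, Ephx1, a microsomal epoxide hydrolase, measured 15.2, 14.7 and 9.79 FPKM in G3TM and 160 and 152 FPKM in G3DM. Its difference of −3.49 ± 0.24 (SE, adjusted p = 0.00088, limma) was about as large as that of Cdkn1a, with less spread within G3TM. Dglucy, a mitochondrial D-glutamate cyclase, measured 0.38, 0.34 and 0.143 FPKM in G3TM and 12.4 and 7.56 FPKM in G3DM. Cpt1c, a carnitine palmitoyltransferase family member, fell by 1.64 ± 0.20 (SE). The 2 members that rose, chosen after their values were seen, were the glutaminase gene Gls2 (0.73 ± 0.19, SE) and Trp53i13 (1.22 ± 0.28, SE), and Phlda3, an inhibitor of Akt signalling, measured 73.9, 162 and 146 FPKM in G3TM and 122 and 115 FPKM in G3DM, with overlapping groups. Without G3DM replicate 2 the number that fell was 3. The number that rose was 4 without G3TM replicate 1, 1 without G3TM replicate 2 and 0 without G3TM replicate 3 or either G3DM replicate, with 3 members higher at an unadjusted p under 0.05 in all 5 libraries (limma).

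**Figure D1:**
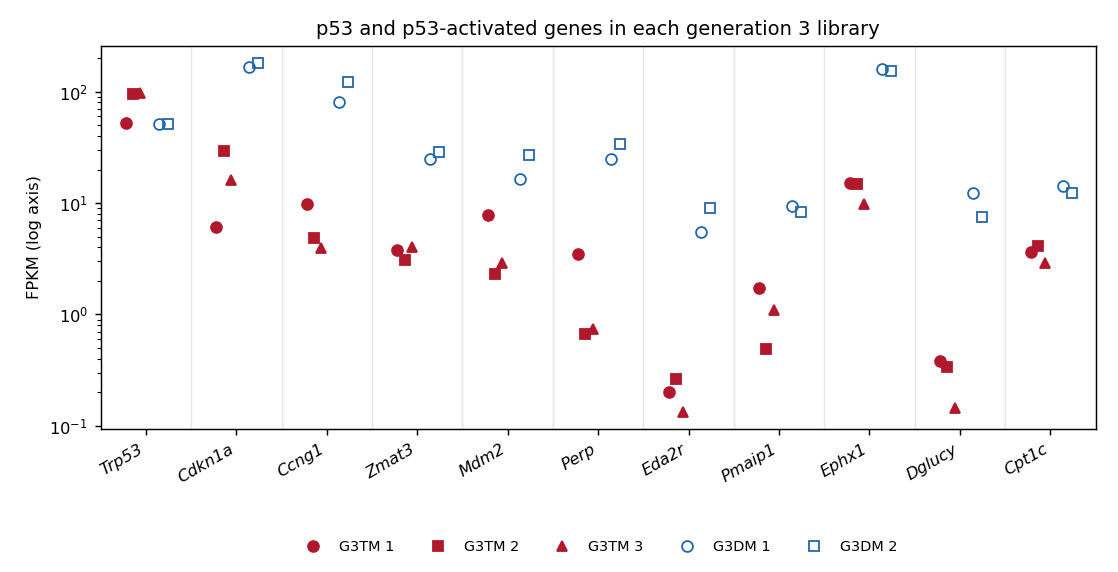
FPKM (log axis) of Trp53 and of p53-activated genes in each generation 3 library, with the 3 G3TM libraries as filled red symbols and the 2 G3DM libraries as open blue symbols. For every gene but Trp53 the G3TM libraries sit below both G3DM libraries, and replicate 1 (circle) is the lowest G3TM library for Cdkn1a and the highest for Ccng1, Mdm2 and Perp.

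The promoters of Cdkn1a and Ccng1 are printed for the element that p53 reads in DNA. They were chosen because they alone held it among the 39 promoters searched for the 3 p53 lists. The pair also had the largest falls in the arrest list. Windows of 250 bases before to 50 after the annotated start were taken from RefSeq (GRCm38.p6) for 20471 genes, and both strands were searched for the p53 element, a pair of adjoining decamer half-sites, with at most 1 mismatch. It was present in 17 of all windows (0.083%) and in 2 of the 18 windows available for the p53-activated genes that fell (11.1%). Of the listed genes that did not pass it was present in 0 of 19 windows, and of those that rose in 0 of 2. The lists were drawn from known targets and the holders are few, so these shares describe the lists and not the change. The capitals mark the element, and each window is written 5′ to 3′ along the gene, from chr17:29090729-29091028 on the plus strand for Cdkn1a and chr11:40755237-40755536 on the minus strand for Ccng1. A match is a description of the sequence, not evidence of binding in these cells.
Cdkn1a: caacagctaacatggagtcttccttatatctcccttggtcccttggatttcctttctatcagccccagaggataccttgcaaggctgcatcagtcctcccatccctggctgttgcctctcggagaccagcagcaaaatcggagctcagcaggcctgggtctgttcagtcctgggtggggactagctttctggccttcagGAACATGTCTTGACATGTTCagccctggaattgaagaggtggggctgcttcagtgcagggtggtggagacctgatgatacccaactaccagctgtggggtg
Ccng1: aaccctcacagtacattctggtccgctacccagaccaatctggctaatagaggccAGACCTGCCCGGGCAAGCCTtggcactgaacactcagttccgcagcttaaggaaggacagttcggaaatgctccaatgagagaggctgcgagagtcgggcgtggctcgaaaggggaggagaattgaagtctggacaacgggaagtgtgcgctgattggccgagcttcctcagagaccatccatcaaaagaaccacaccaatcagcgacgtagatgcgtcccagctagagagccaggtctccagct

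Genes of the DREAM and MMB machinery moved unevenly. Of 14 listed subunits 13 were tested, of which 3 rose and 1 fell (median 0.55, and 0.53 in generation 1). Over all genes tested 19.2% rose and 14% fell, and with so few members these counts lie near those shares. Mybl2, which encodes B-Myb (chromosome 2, 163054687 to 163084688), measured 19, 32.2 and 34 FPKM in G3TM and 4.17 and 2.87 FPKM in G3DM. All G3TM libraries lay above both G3DM libraries, replicate 1 the lowest of them, and the rise was 2.67 ± 0.29 (SE, adjusted p = 0.0025, limma). Foxm1 (chromosome 6, 128362967 to 128376146) measured 29.3, 30.5 and 35.4 FPKM in G3TM and 14.5 and 11.8 FPKM in G3DM, a rise of 1.21 ± 0.20 (SE, adjusted p = 0.0066, limma). Lin9, which also rose, is part of the MuvB core and measured 1.98, 1.25 and 1.38 FPKM in G3TM and 0.547 and 0.672 FPKM in G3DM. Rbl2, which encodes p130, the pocket protein of DREAM in resting cells, measured 2.28, 1.34 and 1.19 FPKM in G3TM and 4.17 and 5.27 FPKM in G3DM. It fell by 1.15 ± 0.23 (SE, adjusted p = 0.013, limma). The other MuvB core members Lin37, Lin52, Lin54 and Rbbp4 did not pass, with differences of 0.73, −0.02, 0.39 and 0.55. Lin9 and these 4 were named after their values were seen. The number of subunits that rose was 6 without G3TM replicate 1 and 1 without G3DM replicate 2, and 2 fell without G3TM replicate 1. Without G3DM replicate 2 neither Foxm1 (adjusted p = 0.096) nor Rbl2 (0.12) passed, without G3DM replicate 1 Rbl2 did not (0.061), and Lin9 passed only without G3TM replicate 1 (limma).

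The genes that these complexes control were higher in G3TM. Of 62 listed G2/M targets 58 were tested, of which 48 rose, none fell (none at an unadjusted p under 0.05 either, limma) and 10 did not pass (median 1.16, and 1.14 between the TM and DM groups of generation 1). Cks2, a subunit that binds cyclin-dependent kinases, measured 79.5, 80.3 and 87.1 FPKM in G3TM and 13.9 and 11.2 FPKM in G3DM. The G3TM libraries were nearly level, and the rise was 2.62 ± 0.19 (SE, adjusted p = 0.0012, limma). Cdc20, the activator of the anaphase-promoting complex, measured 158, 258 and 260 FPKM in G3TM and 50.4 and 40.8 FPKM in G3DM (2.25 ± 0.29, SE), and Spc24, a kinetochore protein, measured 16.1, 26.2 and 27.4 FPKM in G3TM and 5.19 and 2.96 FPKM in G3DM (2.25 ± 0.30, SE). For both genes replicate 1 lay between the other G3TM libraries and G3DM. The median range over the 3 G3TM libraries was 0.52 in this list, the same as over all genes tested, and for 9 of the 58 it was larger than the genotype difference. The count of rising G2/M genes was 24 when G3DM replicate 1 was left out, 9 when G3DM replicate 2 was, and 30 when protein-coding totals were made equal.

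The G1/S and replication list gave a like picture. Of 55 listed genes 54 were in the table and 53 were tested, of which 43 rose and none fell, with none lower at an unadjusted p under 0.05 by limma (median 1.2, and 1.03 in generation 1). Pold2, a subunit of DNA polymerase delta, measured 80.1, 178 and 144 FPKM in G3TM and 18.5 and 17.3 FPKM in G3DM, a rise of 2.76 ± 0.34 (SE, adjusted p = 0.0033, limma). Mcm5, a subunit of the replicative helicase, measured 58.4, 129 and 114 FPKM in G3TM and 19.6 and 15.3 FPKM in G3DM, a rise of 2.39 ± 0.36 (SE). Tk1, a thymidine kinase of S phase, measured 28.1, 49.8 and 50.2 FPKM in G3TM and 9.85 and 6.65 FPKM in G3DM. In each of these genes replicate 1 was the lowest G3TM library and still lay above both G3DM libraries. It was the lowest of the 3 for 33 of the 53 genes tested and the highest for 16. The count of rising genes was 22 without G3DM replicate 1 and 4 without G3DM replicate 2, where Mcm5 (adjusted p = 0.055) and Tk1 (0.05) did not pass (limma).

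Cyclins and kinase regulators rose more often than they fell. Of 25 listed E2F, Rb and CDK inhibitor and cyclin genes 24 were tested, of which 9 rose and 2 fell (median 0.44, and 0.51 in generation 1). Among all genes tested 19.2% rose and 14% fell, so the falls lie under the overall share. Ccnb2, a mitotic cyclin, measured 74.7, 79 and 72.9 FPKM in G3TM and 24.7 and 19.3 FPKM in G3DM (1.74 ± 0.20, SE). Cdkn2d, an inhibitor of Cdk4 and Cdk6, measured 23.9, 34 and 36.7 FPKM in G3TM and 9.67 and 6.48 FPKM in G3DM (1.84 ± 0.26, SE). The 2 members that fell were D-type cyclins, which act in early G1: Ccnd2 measured 32.5, 18.8 and 21 FPKM in G3TM and 114 and 126 FPKM in G3DM (−2.31 ± 0.27, SE, adjusted p = 0.0028, limma), and Ccnd1, chosen after its values were seen, measured 75.3, 68.6 and 73 FPKM in G3TM and 151 and 180 FPKM in G3DM (−1.18 ± 0.20, SE). Cdkn2a, the locus of p16 and Arf, measured 125, 32.8 and 27.6 FPKM in G3TM and 51.6 and 76.6 FPKM in G3DM. Here G3TM replicate 1 lay above and replicates 2 and 3 below both G3DM libraries, and the gene did not pass (−0.37 ± 0.62, SE). Cdkn2a too was chosen after its values were seen. The number that rose was 5 without G3DM replicate 1 and 2 without G3DM replicate 2, where Cdkn2d did not pass (adjusted p = 0.056, limma). The number that fell was 4 without G3TM replicate 1, and Ccnd1 did not pass without G3DM replicate 1 (0.062) or replicate 2 (0.12).

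Promoter letters that are known to bind these complexes were frequent in both lists. The cell cycle genes homology region, written TTTGAA or TTCGAA and searched on both strands, was present in 29 of the 37 windows available for the G2/M genes that rose (78.4%), in 8 of the 10 windows of G2/M genes that did not pass (80%), and in 18.4% of all 20471 windows. The E2F element, written TTTGGCGC, TTTCCCGC, TTTGCCGC or TTTCGCGC, was present in 11 of 38 windows of the G1/S genes that rose (28.9%), in 1 of the 5 windows of G1/S genes that did not pass (20%) and in 2.63% of all windows. Both lists were drawn from known targets, so these shares describe the lists and not the change. The Cdc20 and Plk1 windows below carry 1 homology region each, in capitals, and the Mcm5 window carries 2 overlapping E2F elements on opposite strands, in capitals. They lie at chr4:118437294-118437593 on the minus strand, chr7:122159185-122159484 on the plus strand and chr8:75109259-75109558 on the plus strand (RefSeq, GRCm38.p6). Plk1, a mitotic kinase chosen after its values were seen, measured 100, 151 and 177 FPKM in G3TM and 37.2 and 26.1 FPKM in G3DM. Its rise of 2.12 ± 0.30 (SE) did not pass without G3DM replicate 2 (adjusted p = 0.058, limma).
Cdc20: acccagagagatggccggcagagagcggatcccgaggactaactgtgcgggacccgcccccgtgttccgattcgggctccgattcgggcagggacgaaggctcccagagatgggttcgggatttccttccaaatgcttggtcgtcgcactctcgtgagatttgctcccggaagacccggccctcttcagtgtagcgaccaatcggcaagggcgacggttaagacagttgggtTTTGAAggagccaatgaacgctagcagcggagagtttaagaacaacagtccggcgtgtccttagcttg
Plk1: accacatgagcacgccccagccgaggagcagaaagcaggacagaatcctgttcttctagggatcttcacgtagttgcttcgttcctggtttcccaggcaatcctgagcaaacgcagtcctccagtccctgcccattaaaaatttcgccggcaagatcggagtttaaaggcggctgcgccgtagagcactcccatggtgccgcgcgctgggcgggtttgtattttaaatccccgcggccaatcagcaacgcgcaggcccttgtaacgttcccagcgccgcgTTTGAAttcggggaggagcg
Mcm5: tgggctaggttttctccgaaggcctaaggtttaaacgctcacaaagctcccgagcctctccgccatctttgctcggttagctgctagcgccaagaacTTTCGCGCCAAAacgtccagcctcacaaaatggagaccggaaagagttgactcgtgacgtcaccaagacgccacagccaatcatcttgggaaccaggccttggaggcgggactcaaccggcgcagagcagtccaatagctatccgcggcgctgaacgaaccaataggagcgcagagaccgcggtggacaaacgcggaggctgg

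Telomere genes rose in part. Of 19 genes of shelterin, the CST complex and telomerase, 18 were tested, of which 7 rose, 1 fell and 10 did not pass (median 0.57, and 0.32 in generation 1). For comparison, 19.2% of all genes tested rose and 14% fell, so the 1 fall lies under the overall share. The largest rises were in the H/ACA proteins, which bind telomerase RNA and also the small nucleolar RNAs that guide ribosomal RNA modification. Nhp2 measured 163, 294 and 346 FPKM in G3TM and 53.6 and 44.2 FPKM in G3DM (2.37 ± 0.35, SE), Gar1 measured 31.5, 39.4 and 46.4 FPKM in G3TM and 6.21 and 7.92 FPKM in G3DM (2.31 ± 0.23, SE), and Nop10 measured 55.8, 76.1 and 84.9 FPKM in G3TM and 17 and 17.6 FPKM in G3DM (1.98 ± 0.23, SE). All G3TM libraries lay above both G3DM libraries for these genes. The difference of Gar1 was 0.38 in generation 1, and its genotype difference was larger in generation 3 (adjusted p = 0.028, limma interaction). Of the shelterin subunits Tinf2 rose by 0.94 ± 0.24 (SE), whereas Terf1, Terf2, Terf2ip and Acd did not pass. Tert, the protein catalytic subunit, measured 0.975, 0.711 and 0.712 FPKM in G3TM and 1.64 and 1.57 FPKM in G3DM and fell by 0.54 ± 0.17 (SE, adjusted p = 0.049, limma). Tinf2, Tert and the members that did not pass were chosen after their values were seen. The number that rose was 11 without G3TM replicate 1, 4 without G3TM replicate 3, 3 without G3DM replicate 1 and 2 without G3DM replicate 2, where Nhp2 did not pass (adjusted p = 0.058, limma). The calls of Tert (adjusted p 0.13 to 0.22) and Tinf2 (0.066 to 0.21) held without G3TM replicate 1 and in none of the other 4 fits, and Tert was not called with a pseudocount of 0.1, after quantile normalization or with no mean trend.

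Homologous recombination and Fanconi anaemia genes, which repair crosslinks and stalled forks, gave 10 rises and no falls (none was lower at an unadjusted p under 0.05, limma) among 26 tested of 33 listed (median 0.42, and 0.58 in generation 1). Eme1, a subunit of a structure-specific nuclease, measured 7.84, 9.57 and 9.63 FPKM in G3TM and 2.02 and 1.76 FPKM in G3DM, a rise of 1.79 ± 0.18 (SE, adjusted p = 0.0022, limma). Fance, a core complex member, rose by 1.44 ± 0.30 (SE). The number that rose was 6 without G3TM replicate 2 and 1 without either G3DM replicate, where Fance did not pass (adjusted p = 0.075 and 0.11, limma), and 5 when protein-coding totals were made equal. Replication-dependent histone genes ran mostly the other way. Their mRNAs lack poly(A) tails, so polyadenylated RNA holds little of them. Of 15 tested of 25 listed, 6 fell and 2 rose (median −0.34, and −0.69 in generation 1), against 14% and 19.2% of all genes tested. Rises numbered 3 without G3TM replicate 1, 1 without G3TM replicate 2 and 0 without G3TM replicate 3 or either G3DM replicate. Hist1h2ao measured 0.634, 2.12 and 3.98 FPKM in G3TM and 51.6 and 15.8 FPKM in G3DM, and Hist1h2ab measured 0.321, 0.287 and 0.139 FPKM in G3TM and 3.86 and 6.35 FPKM in G3DM. These genes have near-identical copies in their cluster, so how reads were shared between them is uncertain.

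Ribosome and RNA processing genes led the rises. The 8 with the largest rise, taken from called protein-coding genes that averaged 5 FPKM or more in either group, are given here. Rpl12, a protein of the large ribosomal subunit, measured 300, 569 and 483 FPKM in G3TM and 6.19 and 5.25 FPKM in G3DM, a rise of 6.03 ± 0.30 (SE, adjusted p = 0.00035, limma). Rrp1, a nucleolar factor of ribosomal RNA processing, measured 74.7, 83.8 and 95.3 FPKM in G3TM and 0.859 and 0.931 FPKM in G3DM (5.49 ± 0.19, SE). Hsp90aa1, the inducible cytosolic Hsp90, measured 70.7, 57.7 and 47.2 FPKM in G3TM and 0.557 and 0.632 FPKM in G3DM (5.20 ± 0.22, SE). The processing factors Rrp9, Rrp7a and Rrp12 rose by 4.61 ± 0.36, 4.33 ± 0.31 and 4.29 ± 0.28 (SE), the core spliceosome protein Snrpg by 3.88 ± 0.43 (SE) and Lsm5, of the Lsm ring that binds U6 RNA, by 3.69 ± 0.54 (SE). Lsm5 was listed at 0 in G3DM replicate 2. In generation 1 the differences of Rpl12, Rrp1, Hsp90aa1, Rrp9, Rrp7a, Rrp12, Snrpg and Lsm5 were 0.43, −0.04, 0.15, 0.37, −0.03, 0.02, 0.44 and 1.58. For all of them but Lsm5 the difference was larger in generation 3 than in generation 1 (adjusted p at most 0.0065, limma interaction). Like Rrp1, Rpl12 follows the division of 6 and 9 libraries, at 300 to 610 FPKM in the 6 and 3.84 to 6.77 FPKM in the 9. The comparison of generation 3 runs across that division, so a genotype difference in these genes cannot be told apart from it.

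As groups, 55 of 79 ribosomal protein genes rose and none fell (median 1.35, and 0.11 in generation 1), and 20 of 33 ribosome biogenesis factors rose and none fell (median 0.86, and 0.49 in generation 1). Rps29 measured 490, 891 and 572 FPKM in G3TM and 54.6 and 49.1 FPKM in G3DM, and Rps27 measured 490, 912 and 930 FPKM in G3TM and 84.4 and 67 FPKM in G3DM. Replicate 1 was the lowest G3TM library for 64 of the 79 ribosomal protein genes. Genes of this family have many processed pseudogenes with nearly the same sequence, and how the deposited values divide such reads is uncertain. Among 621 processed pseudogenes tested 234 rose (37.7%) and 49 fell (7.89%), against 18.2% and 14.1% of 10707 protein-coding genes. In neither list was a member lower at an unadjusted p under 0.05 (limma). The counts of rising ribosomal protein genes and biogenesis factors were 17 and 5 without G3DM replicate 1, and 8 and 5 without G3DM replicate 2, and 10 biogenesis factors rose without G3TM replicate 3 and 12 with equal protein-coding totals. Of the ribosomal protein genes 2 fell without G3TM replicate 1, and 1 did after quantile normalization and with equal protein-coding totals.

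Gene length went along with the direction of change. With protein-coding genes put into 4 equal classes by listed length, in the shortest class, 204 to 2699 bases, 33.1% rose and 10.3% fell (median 0.45). In the longest class, 6562 to 41155 bases, 6.16% rose and 19.4% fell (median −0.26). The median listed length was 1739 bases for the ribosomal protein genes, 2101 for the respiratory chain subunits, 4025 for the G2/M targets, 4259 for the G1/S genes, 3493.5 for the p53 arrest genes and 6466.5 for the fibroblast and matrix genes. The part of length in these results was not tested.

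Mitochondrially encoded protein genes and the nuclear genes of the respiratory chain moved in opposite directions. Of 13 mitochondrially encoded protein genes 12 fell and none rose, with none higher at an unadjusted p under 0.05 by limma (median −2.21, and −0.12 in generation 1). The mitochondrial ribosomal RNA mt-Rnr2, which is outside this list, was higher in G3TM, at 44.7, 67.45 and 58 FPKM against 3.76 and 2.68 FPKM in G3DM. The subunit genes mt-Nd4l, mt-Atp6 and mt-Co2 led. mt-Nd4l measured 3.07, 1.83 and 1.77 FPKM in G3TM and 42 and 52.5 FPKM in G3DM (−3.92 ± 0.24, SE, adjusted p = 0.00069, limma). mt-Atp6 measured 13.1, 3.59 and 11 FPKM in G3TM and 77.4 and 68.1 FPKM in G3DM. For 10 of the 13 genes replicate 1 was the highest G3TM library, and all 3 stayed below both G3DM libraries for the 13. Of 37 nuclear-encoded respiratory chain subunits 19 rose and none fell, again none at an unadjusted p under 0.05 (median 0.92, and 0.17 in generation 1). The complex I subunit Ndufa1 measured 77.8, 79.4 and 79 FPKM in G3TM and 12.3 and 15.7 FPKM in G3DM (2.42 ± 0.19, SE), and the complex III subunit Uqcrq measured 100, 184 and 169 FPKM in G3TM and 27.7 and 25.3 FPKM in G3DM (2.42 ± 0.30, SE). The number of mitochondrial genes that fell was 6 when G3DM replicate 1 was left out and 5 when replicate 2 was, and that of rising respiratory subunits was 30 without G3TM replicate 1, 10 without G3TM replicate 3, and 6 and 4 without G3DM replicate 1 and 2.

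Stress and metabolic lists were mixed. Over all genes tested 19.2% rose and 14% fell, and the chaperone and glycolysis counts below lie near or under these shares. Of 21 genes of the unfolded protein and integrated stress responses 11 rose and 1 fell (median 0.84, and 0.13 in generation 1). Trib3, a pseudokinase induced by Atf4, measured 16, 63.1 and 13 FPKM in G3TM and 4.76 and 1.8 FPKM in G3DM, and Chac1, a glutathione-degrading enzyme under Atf4, measured 11.9, 37.6 and 13.3 FPKM in G3TM and 6.4 and 3.73 FPKM in G3DM. In both genes replicate 2 stood above the other G3TM libraries, and it was the highest of the 3 for 17 of the 21 genes. Sdf2l1, a chaperone cofactor of the endoplasmic reticulum, rose by 1.74 ± 0.29 (SE). The number that rose was 7 without G3TM replicate 2, 5 without G3TM replicate 3, 2 without G3DM replicate 1 and 0 without G3DM replicate 2. The number that fell was 3 without G3TM replicate 1, after quantile normalization and with equal protein-coding totals, 2 without G3TM replicate 2 and 0 without either G3DM replicate. Trib3 did not pass without either G3DM replicate (adjusted p = 0.059 and 0.16), nor Chac1 without these (0.085 and 0.21) or G3TM replicate 3 (0.054), nor Sdf2l1 without G3DM replicate 2 (0.076, limma). Of 26 chaperones 6 rose and 2 fell, with a median of 0.40 that was −0.03 after quantile normalization (0.30 in generation 1). Hspe1, the mitochondrial cochaperonin, rose by 1.41 ± 0.20 (SE) and the small heat shock protein gene Cryab fell by 1.69 ± 0.26 (SE). Both calls were lost without either G3DM replicate (adjusted p 0.053 to 0.067, limma). The number of chaperones that rose was 14 without G3TM replicate 1, 3 without G3TM replicate 3 and 1 without either G3DM replicate, where none was called lower. Of 22 glycolysis genes 3 rose and 2 fell (median 0.49, and 0.65 in generation 1). Gapdh was uneven in the controls, at 59.3, 130 and 109 FPKM in G3TM and 25 and 2.56 FPKM in G3DM. It has many processed pseudogenes, so its level is uncertain. Slc16a3, a lactate exporter, rose by 1.59 ± 0.40 (SE), and Eno2, the neuronal enolase, fell by 1.47 ± 0.19 (SE). Gapdh did not pass without G3TM replicate 3 (adjusted p = 0.055) or G3DM replicate 2 (0.076), nor Slc16a3 without these (0.065 and 0.2) or G3DM replicate 1 (0.059, limma). The number of glycolysis genes that rose was 11 without G3TM replicate 1, 1 without G3DM replicate 1 and 0 without G3TM replicate 3 or G3DM replicate 2 (6 were higher at an unadjusted p under 0.05 in all 5 libraries, limma). In the fit of all 15 libraries 6 rose, and the number that fell was 1 there and without either G3DM replicate.

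Many matrix genes fell. Of 40 fibroblast and matrix genes, all tested, 17 fell, none rose (1 was higher at an unadjusted p under 0.05, limma) and 23 did not pass (median −0.87, and −0.34 in generation 1). Small leucine-rich proteoglycans, which organise collagen fibrils, led. Ogn measured 2.84, 1.61 and 1 FPKM in G3TM and 32.4 and 25.3 FPKM in G3DM (−3.44 ± 0.30, SE, adjusted p = 0.0015, limma). Aspn, of the same family but outside the list, measured 2.57, 1.15 and 1.09 FPKM in G3TM and 34.4 and 27.2 FPKM in G3DM (−3.65 ± 0.28, SE), and Lum measured 1.26, 0.943 and 0.914 FPKM in G3TM and 8.88 and 8.74 FPKM in G3DM (−2.27 ± 0.18, SE). All 3 were low in every G3TM library. Thbs1, a matricellular protein that activates TGF-beta, measured 718, 256 and 374 FPKM in G3TM and 2033 and 1827 FPKM in G3DM (−2.23 ± 0.45, SE). Col1a1, the main fibrillar collagen of fibroblasts, overlapped between the groups at 1272, 2022 and 1508 FPKM in G3TM and 2029 and 1157 FPKM in G3DM, and was chosen after its values were seen. In bulk RNA, fewer cells of a type and less RNA per cell cannot be told apart. The number that fell was 30 after quantile normalization and 26 with equal protein-coding totals, 7 without G3DM replicate 1 and 6 when replicate 2 was left out, and Thbs1 did not pass without either (adjusted p = 0.086 and 0.094, limma). Without G3TM replicate 1, 3 of the 40 rose. Angptl7, a secreted matrix-linked protein and among the 8 largest falls by the rule used for the rises, measured 7.98, 0.189 and 1.77 FPKM in G3TM and 28.2 and 59.8 FPKM in G3DM, so that its range over the G3TM libraries, 2.92, came near its difference of −3.77 ± 0.78 (SE). It did not pass without G3DM replicate 2 (adjusted p = 0.098, limma).

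Signalling and imprinted genes fell more often than they rose. Of 30 TGF-beta and BMP genes 9 fell and 2 rose (median −0.34, and −0.26 in generation 1). Of all genes tested 19.2% rose and 14% fell. In this list and the imprinted list below, falls lie above and rises under these shares. The coreceptor gene Tgfbr3 measured 8.93, 4.18 and 4.26 FPKM in G3TM and 16.1 and 23 FPKM in G3DM, and the BMP antagonist gene Grem1 measured 29.9, 10.4 and 17.6 FPKM in G3TM and 44.1 and 70.4 FPKM in G3DM. Both were highest in replicate 1 among G3TM libraries, as were 18 of the 30 genes. The number that fell was 17 without G3TM replicate 1, 4 without G3TM replicate 3, 3 without G3DM replicate 1 and 1 without G3DM replicate 2, where Tgfbr3 did not pass (adjusted p = 0.11). Grem1 did not pass without G3TM replicate 3 (0.074), G3DM replicate 1 (0.071) or G3DM replicate 2 (0.19, limma). Rises numbered 4 without G3TM replicate 1, 1 with equal protein-coding totals and 0 without either G3DM replicate. Of 23 imprinted growth genes tested of 29 listed, 9 fell and 2 rose (median −0.23, and −0.29 in generation 1). Igf2r, which clears Igf2, measured 30.5, 30.3 and 27 FPKM in G3TM and 120 and 104 FPKM in G3DM (−1.90 ± 0.19, SE), the noncoding RNA Meg3 fell by 1.83 ± 0.29 (SE), and Nnat, a neuronatin gene expressed from the paternal copy, rose by 2.18 ± 0.36 (SE). The number of imprinted genes that fell was 5 without G3TM replicate 3, 5 without G3DM replicate 1 and 3 without G3DM replicate 2, where Meg3 (adjusted p = 0.064) and Nnat (0.066) did not pass (limma). Rising imprinted genes numbered 4 without G3TM replicate 1, 1 without G3TM replicate 3 or G3DM replicate 1 and 0 without G3DM replicate 2.

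Of 53 limb, Hox and mesenchyme factors tested 7 rose and 5 fell (median −0.17, and −0.07 in generation 1), and for 37 of them the range over the G3TM libraries was larger than the genotype difference. Over all genes tested 19.2% rose and 14% fell, so both counts lie under the overall shares. The counts of senescence-linked and interferon genes below lie near or under these shares. Six2, a homeobox factor of mesenchymal progenitors, measured 16.5, 34.7 and 24 FPKM in G3TM and 2.19 and 2.17 FPKM in G3DM (2.97 ± 0.30, SE). Barx1 rose by 2.46 ± 0.34 (SE) and the hindlimb factor gene Pitx1 by 2.09 ± 0.44 (SE), though not without G3DM replicate 2 (adjusted p = 0.12, limma). Rising factors numbered 3 without G3DM replicate 1 and 2 without G3DM replicate 2. The number that fell was 14 without G3TM replicate 1, 12 with equal protein-coding totals and 8 after quantile normalization, but 2 without G3TM replicate 3, 1 without G3DM replicate 1 and 0 without G3DM replicate 2. Of 23 immediate early genes 9 rose and 2 fell (median 0.69, and −0.30 in generation 1), with Junb at 111, 116 and 129 FPKM in G3TM and 36.4 and 35.2 FPKM in G3DM (1.70 ± 0.19, SE), Fosl1 higher by 1.51 ± 0.26 (SE) and Klf4 lower by 1.67 ± 0.30 (SE). The number of them that rose was 2 without G3DM replicate 1 and 1 without G3DM replicate 2, where neither Fosl1 (adjusted p = 0.074 and 0.051) nor Klf4 (0.054 and 0.079) passed, and 7 fell without G3TM replicate 1 (limma), 1 without G3TM replicate 2 or 3 and 0 without either G3DM replicate. Of 30 senescence-linked factors tested of 39 listed, 5 rose and 6 fell, with a median of 0.05 that was −0.36 after quantile normalization and −0.33 with equal protein-coding totals (0.10 in generation 1). Igfbp5, an IGF-binding protein, measured 30.9, 56.6 and 28.7 FPKM in G3TM and 174 and 268 FPKM in G3DM (−2.52 ± 0.35, SE), and the chemokine gene Ccl7 fell by 2.40 ± 0.37 (SE), whereas the chromatin protein gene Hmgb2 rose by 2.10 ± 0.19 (SE). Without G3DM replicate 2 Ccl7 did not pass (adjusted p = 0.052, limma), and 2 senescence-linked genes rose and 2 fell. Of them 3 rose without G3TM replicate 3 and 2 without G3DM replicate 1. Of 18 interferon response genes tested of 30 listed none rose and 3 fell (median 0.06, −0.13 with equal protein-coding totals, and 0.05 in generation 1): Ifit3 by 1.26 ± 0.18, Tap1 by 1.24 ± 0.23 and Ddx58 by 0.82 ± 0.17 (SE). None of the 3 passed without G3DM replicate 2 (adjusted p 0.055 to 0.11), 1 did without G3DM replicate 1, and 5 members rose without G3TM replicate 1 (2 were higher at an unadjusted p under 0.05 in all 5 libraries, limma).

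**Figure D2:**
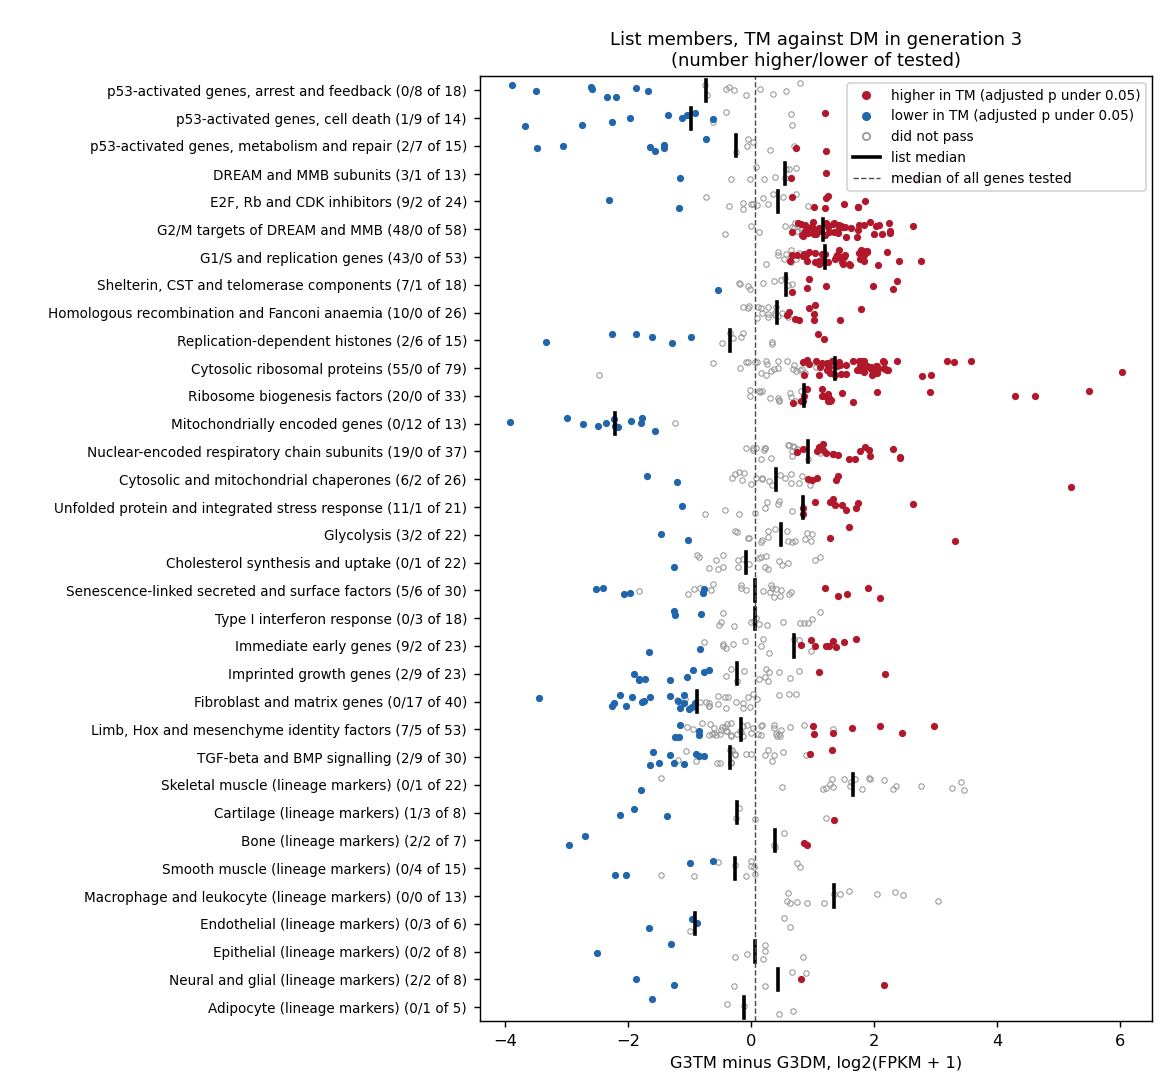
G3TM minus G3DM difference on the log2(FPKM + 1) scale for each tested member of the gene lists, one row per list, with filled points for members past an adjusted p of 0.05, open points for the rest, a bar at each list's median and a dashed line at the median of all genes tested (0.06). The G2/M, G1/S and ribosomal protein rows lie to the right, the mitochondrially encoded row furthest to the left, and the muscle and macrophage rows hold large differences that are nearly all open points.

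The spread among the G3TM libraries was large beside these differences. The median range over the 3 G3TM libraries was 0.52 log2 units and that over the 2 G3DM libraries 0.16, against a median absolute genotype difference of 0.51. A range over 3 libraries is wider than one over 2 by construction. The G3TM range was larger than the genotype difference for 5931 of the 11878 genes (49.9%), of which 35 were called. It passed 1 log2 unit in 1331 genes and 2 log2 units in 105, against 143 genes with a G3DM range over 1. Most of it lay between replicate 1 and the other pair. Replicates 2 and 3 of G3TM differed by a median of 0.16, as little as the 2 G3DM libraries (0.16), whereas replicate 1 differed from replicates 2 and 3 by 0.43 and 0.40. Replicate 1 was also nearer to G3DM, at 0.42 and 0.44, than replicate 2 (0.58 and 0.66) or replicate 3 (0.57 and 0.64). Among the 1331 genes with a G3TM range over 1, replicate 1 was the one farthest from the other pair in 940, replicate 2 in 211 and replicate 3 in 180. It was the lowest of the 3 in 750 of them and the highest in 444. Replicate 1 also had the most reads of the 5 libraries. Summed over all genes, FPKM came to 304918 in replicate 1, near G3DM (297503 and 273678), and to 425814 and 404218 in replicates 2 and 3. The part of this difference in scale in the spread was not tested.

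**Figure D3:**
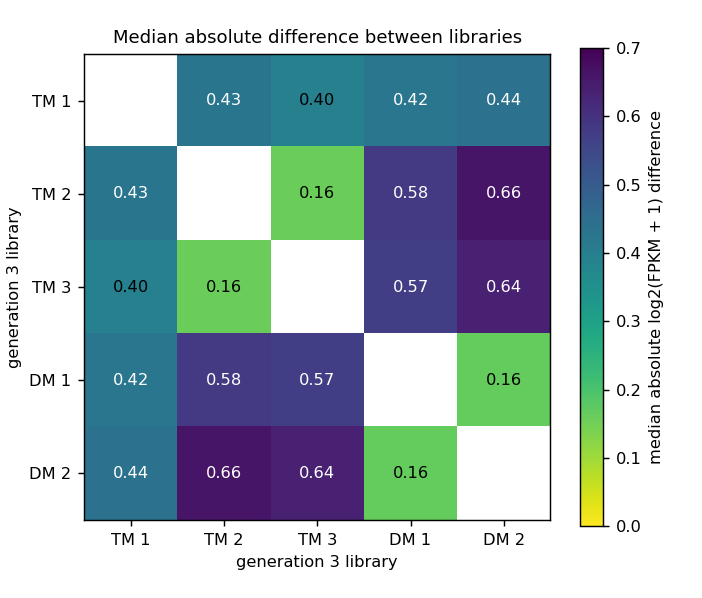
Median absolute difference in log2(FPKM + 1) over 11878 genes for each pair of generation 3 libraries, G3TM first and G3DM after. G3TM replicates 2 and 3 differ by 0.16, as do the 2 G3DM libraries, and G3TM replicate 1 lies 0.40 to 0.44 from all 4 others.

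**Figure D4:**
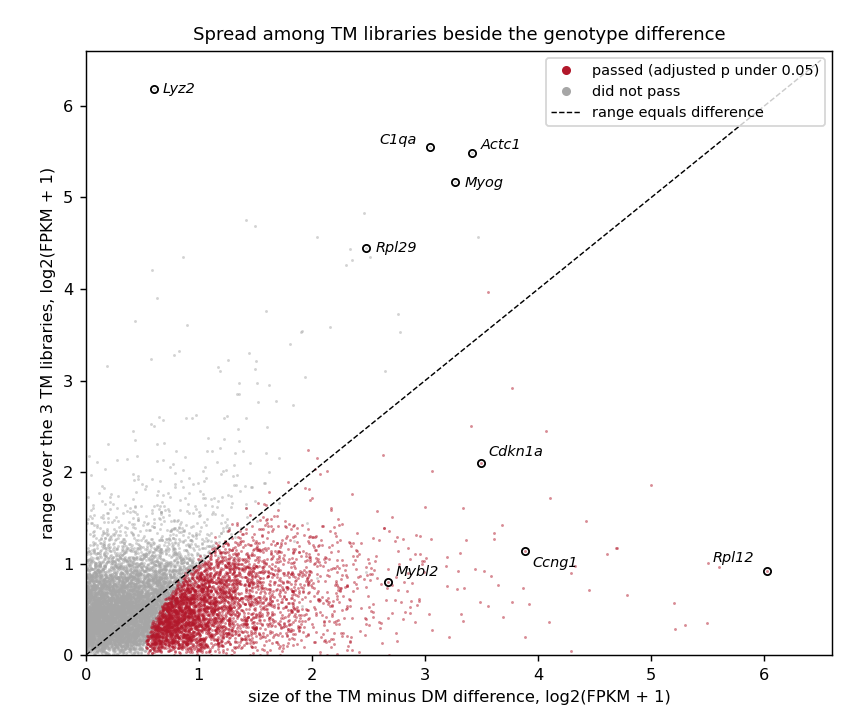
Range over the 3 G3TM libraries against the size of the G3TM minus G3DM difference, both in log2(FPKM + 1), one point per gene, red for genes past an adjusted p of 0.05, with a dashed line where both are equal. Cdkn1a, Ccng1, Mybl2 and Rpl12 lie below the line, and Lyz2, C1qa, Actc1, Myog and Rpl29 lie above it, where 35 called genes are found.

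Skeletal muscle markers accounted for many of the widest ranges. Myog, a transcription factor of muscle differentiation (chromosome 1, 134289989 to 134292548), measured 0.737, 61.6 and 15.7 FPKM in G3TM and 0.453 and 0.104 FPKM in G3DM. Replicate 1 stood near the level of G3DM and replicates 2 and 3 far above it, and the difference of 3.27 ± 1.30 (SE) did not pass (adjusted p = 0.092, limma). Actc1, the actin of cardiac and developing skeletal muscle, measured 2.3, 147 and 45.8 FPKM in G3TM and 2.13 and 1.28 FPKM in G3DM. Mylpf, a myosin light chain of fast muscle, measured 2.29, 77 and 35.3 FPKM in G3TM and 1.52 and 0.439 FPKM in G3DM. All 22 tested markers of 32 listed had their lowest G3TM value in replicate 1, and 21 had their highest in replicate 2. Of the 32, 5, 23 and 22 reached 1 FPKM in G3TM replicates 1, 2 and 3, and 6 and 5 in G3DM. Most therefore passed the filter through replicates 2 and 3, so this order and the results for the 22 are in part set by it. With no filter the median difference was 1.31 over 31 markers. In all 22 the range over G3TM was larger than the genotype difference, with a median range of 3.00 and a median difference of 1.65, and −0.31 in generation 1. None rose (9 were higher at an unadjusted p under 0.05, limma) and 1 fell: Acta1, skeletal muscle actin, which measured 21.4, 82.5 and 43.8 FPKM in G3TM and 178 and 127 FPKM in G3DM. Acta1 and Des, which are both high in G3DM, are also expressed in other muscle types, and the fall of Acta1 lost its call when G3TM replicate 3 (adjusted p = 0.086) or either G3DM replicate (0.17 and 0.12, limma) was left out. Summed over all 32 markers, the list came to 52.8, 658 and 297 FPKM in G3TM and 350 and 213 FPKM in G3DM. With this pair in, G3TM replicate 1 thus lay below both G3DM libraries, and G3TM replicate 3 below G3DM replicate 1. Without Acta1 and Des, left out with their values known, the sums were 14.9, 515 and 191 FPKM in G3TM and 12.8 and 8.80 FPKM in G3DM. In G3TM 5, 3 and 3 markers were listed at 0, and in G3DM 7 and 5. Myf6, which is specific to muscle, was listed at 0 in all 5. Without G3TM replicate 1, 20 of the 22 rose, and in the fit of all 15 libraries 13 did. Myf6 was named after its values were seen.

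Macrophage markers split the G3TM libraries in another order. C1qa, a chain of complement component C1q (chromosome 4, 136895917 to 136898803), measured 0.402, 13.1 and 64.5 FPKM in G3TM and 0.301 and 0.349 FPKM in G3DM. Lyz2, the lysozyme of myeloid cells, measured 2.22, 27.9 and 233 FPKM in G3TM and 17.2 and 17.7 FPKM in G3DM, so that the groups overlapped. C1qb measured 0.524, 12.6 and 42.3 FPKM in G3TM and 0.431 and 1.14 FPKM in G3DM. Replicate 3 was the highest and replicate 1 the lowest G3TM library for all 13 tested markers of 18 listed. Of the 18, 3, 13 and 15 reached 1 FPKM in G3TM replicates 1, 2 and 3, and 3 and 6 in G3DM. Many therefore passed the filter through replicates 2 and 3, so this order and the results for the 13 are in part set by it. With no filter the median difference was 0.82 over the 18 markers. Their median range over G3TM was 3.6 and their median difference 1.34 (−0.01 in generation 1), and none was called (none at an unadjusted p under 0.05 either, limma), while 10 of the 13 were higher without G3TM replicate 1. The summed level was 9.38, 92.9 and 491 FPKM in G3TM and 27.7 and 32.8 FPKM in G3DM, with 3, 1 and 0 markers listed at 0 in G3TM and 3 and 1 in G3DM. Ptprc, which marks leukocytes, was at most 0.0755 FPKM in all 5 libraries and was named after its values were seen.

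**Figure D5:**
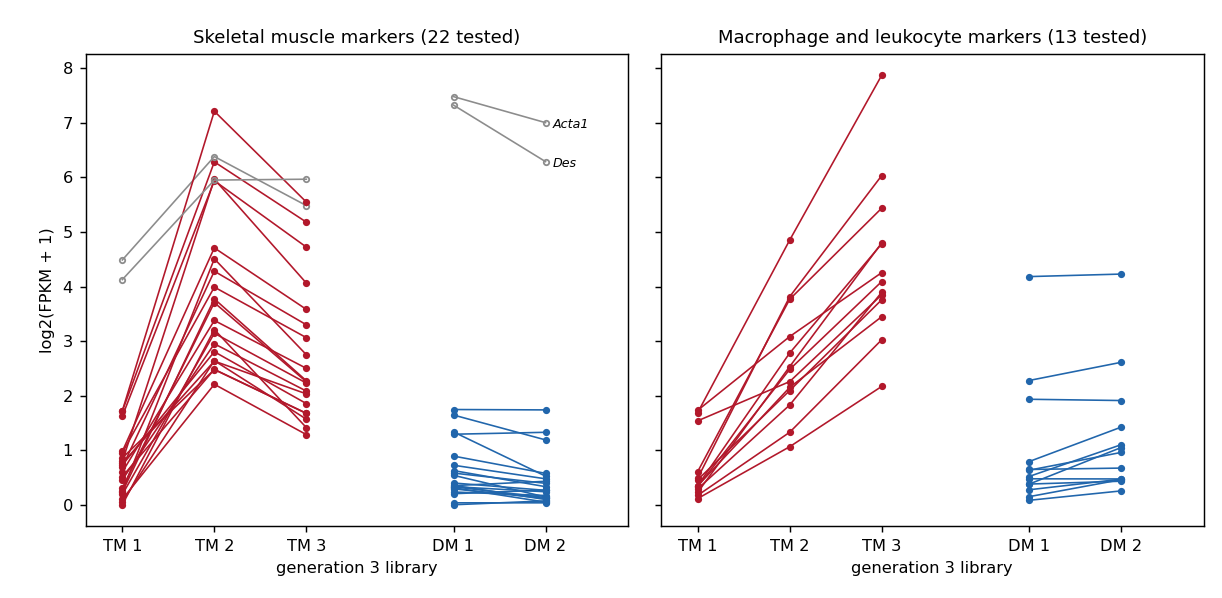
log2(FPKM + 1) of the tested skeletal muscle (left) and macrophage (right) markers in each generation 3 library, G3TM in red and G3DM in blue, with lines joining a gene within its group; Acta1 and Des are drawn in grey. The muscle markers peak in G3TM replicate 2 and the macrophage markers in G3TM replicate 3. In G3TM replicate 1 the muscle markers without the grey pair sum to 14.9 FPKM, near G3DM (12.8 and 8.80 FPKM), and the macrophage markers to 9.38 FPKM, below G3DM (27.7 and 32.8 FPKM). With the grey pair the muscle markers sum to 52.8 FPKM in G3TM replicate 1, below G3DM (350 and 213 FPKM).

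Other marker lists varied less, with median ranges over G3TM of 0.38 to 1.08. They hold few tested genes, and over all genes tested 19.2% rose and 14% fell. The medians of the smooth muscle, endothelial, cartilage, bone, epithelial, neural and adipocyte lists were −0.26, −0.92, −0.22, 0.39, 0.06, 0.44 and −0.12 in generation 3 and −0.39, −0.06, −1.04, −0.16, −0.14, 0.11 and −0.49 in generation 1. Smooth muscle genes gave 4 falls and no rises among 15 tested (2 were higher at an unadjusted p under 0.05, limma), led by the contractile gene Myh11 at 4.68, 1.93 and 5.93 FPKM in G3TM and 26.3 and 17.9 FPKM in G3DM (−2.22 ± 0.38, SE). In the endothelial list 3 of 6 tested genes fell, with Esam at 0.385, 0.545 and 0.344 FPKM in G3TM and 3.49 and 3.47 FPKM in G3DM. Of 8 cartilage genes 1 rose and 3 fell, and Prg4, which encodes lubricin, measured 5.15, 0.524 and 1.11 FPKM in G3TM and 7.85 and 14.8 FPKM in G3DM. Of 7 bone genes 2 rose and 2 fell, among them Spp1, which encodes osteopontin, at 73, 70.6 and 52.9 FPKM in G3TM and 371 and 495 FPKM in G3DM (−2.71 ± 0.26, SE). Of 8 epithelial genes 2 fell, with Upk3b, also a mesothelial marker, at 6.05, 6.41 and 4.16 FPKM in G3TM and 36.8 and 34.4 FPKM in G3DM. The neural list gave 2 rises and 2 falls among 8, with Tubb3, a beta-tubulin of neurons, at 79.8, 241 and 135 FPKM in G3TM and 39.3 and 22.7 FPKM in G3DM. Of 5 adipocyte genes Plin4 alone fell, and no erythroid gene was tested. Of the genes named here Myh11 did not pass without G3DM replicate 1 (adjusted p = 0.06), Tubb3 without G3DM replicate 2 (0.13), Plin4 without G3TM replicate 2 or 3 or G3DM replicate 2 (0.054 to 0.1), and Prg4 without any of the 4 libraries other than G3TM replicate 1 (0.057 to 0.19, limma). The number that fell was, in the smooth muscle list, 2 without G3TM replicate 2 or 3 or G3DM replicate 2 and 1 without G3DM replicate 1, in the endothelial list 1 without either G3DM replicate, and in the cartilage list 1 without G3TM replicate 2 or 3 or G3DM replicate 1 and 0 without G3DM replicate 2. Without G3TM replicate 1, 2 smooth muscle, 2 endothelial, 2 cartilage, 3 epithelial, 4 neural genes and 1 adipocyte gene rose. The number of bone genes that rose was 1 without G3TM replicate 2 or 3 and 0 without either G3DM replicate, that of neural genes 1 without G3TM replicate 3 or G3DM replicate 1 and 0 without G3DM replicate 2, and that of cartilage genes 0 without either G3DM replicate. Of the neural genes 1 fell without either G3DM replicate, and of the epithelial genes 1 fell without G3DM replicate 1. After quantile normalization 8 smooth muscle genes fell and 4 neural genes rose, and the epithelial median was −0.09. The part of muscle and macrophage transcripts in the results on p53 and cell cycle genes was not tested. Without G3TM replicate 2, 9 p53 arrest genes fell and 46 G2/M genes rose, and without G3TM replicate 3, 8 fell and 37 rose. Neither fit removes the transcripts: replicate 3 keeps muscle markers (191 FPKM without Acta1 and Des) and replicate 2 macrophage markers (92.9 FPKM). The counts therefore do not decide that part.

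Some single genes also parted the G3TM libraries. Rpl29, a ribosomal protein gene, measured 153, 6.09 and 10.8 FPKM in G3TM and 198 and 85.2 FPKM in G3DM, so that replicate 1 lay within the range of G3DM. It did not pass (−2.48 ± 1.22, SE), and like others of its family it has processed pseudogenes. Cholesterol synthesis and uptake genes were spread widely within G3TM: for 21 of 22 the range over G3TM was larger than the difference, 1 fell (Hsd17b7, an enzyme of the pathway, by 1.25 ± 0.30, SE), none rose (2 were higher at an unadjusted p under 0.05, limma) and the median difference was −0.09, or 0.20 without G3TM replicate 3 and 0.15 without G3DM replicate 2 (0.50 in generation 1). Without G3TM replicate 1, 2 rose and 4 fell, and without G3TM replicate 2 none rose and 2 fell. Hsd17b7 did not pass, and no gene of the list fell, without G3TM replicate 3 or either G3DM replicate (adjusted p 0.057 to 0.15). Replicate 2 was the highest G3TM library for 14 of the 22. The counts of this list lie under the shares of all genes tested, 19.2% higher and 14% lower.

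The genotype difference of generation 3 was also set against those of generations 1 and 5 in a fit of all 15 libraries, in which 13562 genes were tested. It differed from that of generation 1 for 328 genes (2.42%), 208 with a positive and 120 with a negative interaction, a number that was 1088 without G3TM replicate 1 and 80 to 179 without any other library of those groups. Of the p53 death genes Bax was among them, at 1.2 in generation 3 and −0.91 in generation 1, and of the G2/M genes Cks2, at 2.62 and 0.92. The groups with the most were 10 ribosomal protein genes and 9 of the 13 mitochondrially encoded protein genes, which lie on the division of 6 and 9 libraries. The difference of generation 3 differed from that of generation 5, whose libraries span the same division, for 32 genes (0.236%), 3 positive and 29 negative, and for 1782 without G5DM replicate 1, against 8 to 27 without any other library. For the p53 lists the median differences were −0.73, −0.98 and −0.24 in generation 3, −1.32, −1.09 and −1.03 in generation 1, and −1.24, −1.14 and −0.46 in generation 5. For the G2/M genes they were 1.16, 1.14 and 0.74 in generations 3, 1 and 5, and for the G1/S genes 1.2, 1.03 and 1.22.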

How the data were processed

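Per the submitters' processing notes, the tools were fastp, CASAVA 1.8, DESeq2 1.20.0, featureCounts 1.5.0-p3 and HISAT2 2.0.5, with no role stated. The authors deposited 1 table of FPKM values per gene for 15 libraries. Its genome build is not given in the sources used here, but coordinates equalled GENCODE vM21 (GRCm38) for 53499 of 54409 identifiers (98.3%). FPKM steps gave whole reads for 100% of values (tolerance 0.05). Members and lists were chosen with earlier results of these data known.

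Genes reaching 1 FPKM in 2 or more of the 5 libraries were compared on the log2(FPKM + 1) scale by limma 3.58.1 (R 4.3.3) with a mean trend, called at a Benjamini-Hochberg adjusted p under 0.05, and tested on simulated data. Interactions used all 15 libraries. Named genes are the 8 largest rises and falls, the 3 largest called members of each list, the 3 widest G3TM ranges of each marker list, the 8 widest ranges, up to 4 of the largest interactions each way, and Trp53, Wrn, Terc, Cdkn1a, Mdm2, Mybl2 and Foxm1. Sex-linked Xist, Tsix, Ddx3y, Eif2s3y, Kdm5d and Uty were left out of the largest rises and falls. A gene that the rule for list members names is not reported here. Alternatives were a pseudocount of 0.1, other filters and scalings, no trend, voom on recovered reads, a replicate block, and each library left out. One more, scaling recovered reads to their total, was chosen after seeing the data. Replicates differed by more than counting noise (chi-square per degree of freedom 27.2 to 192). The other software was Python 3.11.15 with matplotlib 3.10.9, scipy 1.17.1, numpy 2.4.6 and pandas 2.3.3.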

Additional observations from a re-analysis of the deposited data

Results flagged for a closer look

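The genes below stood out because the difference between TM and DM libraries differed between generation 3 and another generation in limma's interaction term, fitted to all 15 libraries with Benjamini-Hochberg adjustment. The value given is the log2 difference of generation 3 minus that of the other generation, for up to 4 of the largest positive and 4 of the largest negative called protein-coding genes of each comparison. Against generation 5 there were only 3 positive ones.

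Against generation 1, Rpl12 gave 5.6, Rrp1 5.53, Hsp90aa1 5.05 and Rrp7a 4.36. All 4 were high in G3TM and low in the 2 G1TM libraries, where Rpl12 measured 6.40 and 6.77 FPKM and Rrp7a 0.723 and 0.709 FPKM, so they follow the division of 6 and 9 libraries, and their part in a genotype difference cannot be told apart from it. The mitochondrially encoded mt-Nd4l gave −3.76 along the same division, at 37.7 and 35.8 FPKM in G1TM and 36.3 and 46.3 FPKM in G1DM. The histone genes Hist1h2ao and Hist1h2ap gave −6.19 and −3.91. Hist1h2ao measured 172 and 235 FPKM in G1TM and 18.5 and 39 FPKM in G1DM, higher in TM, whereas it was lower in TM in generation 3. Cck, which encodes the peptide hormone cholecystokinin, gave −3.83. It measured 15.9, 13 and 18.2 FPKM in G3TM and 96.8 and 276 FPKM in G3DM, against 17.6 and 10.6 FPKM in G1TM and 5.42 and 15.3 FPKM in G1DM, so that the 2 G3DM libraries alone were high. These 8 interactions stayed past the threshold without any 1 library.

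Against generation 5, Cck gave −3.05, with 15, 10.9 and 12.1 FPKM in G5TM and 15.3, 15.7 and 15 FPKM in G5DM. Gzme, which encodes a granzyme, gave −2.85, at 0.124, 0.89 and 0.503 FPKM in G3TM and 5.92 and 8.76 FPKM in G3DM, against at most 1.73 FPKM in generations 1 and 5. The posterior Hox genes Hoxc10 and Hoxa10 gave −3.77 and −3.31. Hoxc10 measured 6.37, 7.47 and 7.73 FPKM in G3TM and 10.1 and 12.8 FPKM in G3DM, and in generation 5 it measured 7.28, 16.4 and 8.82 FPKM in G5TM and 0.029, 0.847 and 0.0364 FPKM in G5DM, so that the G5DM libraries stood apart from the rest. Flrt3 gave 1.95, Ch25h 1.6 and Itga8 1.48, and for these 3 too the G5DM libraries lay outside the range of G3TM, G3DM and G5TM. Of these 7 only Hoxc10 stayed past the threshold without any 1 library. Gzme lost its call without G3DM replicate 2, and the other 5 lost theirs without at least 5 libraries, each left out in turn.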

How the results depend on the processing

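Both generation 3 groups carry the numbers 1 and 2, and deviations of same-numbered samples gave r = −0.37 and −0.32 over genes. The deviations of the 2 G3DM libraries mirror each other by construction, so these values say little about what a number marks. The labels do not say what a number marks, so no pairing was used. With the replicate number as a block, which leaves G3TM replicate 3 without a partner, 1879 genes were called, 1118 higher and 761 lower. Testing every gene with any value gave 2313 calls, 1104 higher, among 26409 genes, and a mean FPKM of at least 5 gave 893 lower calls. Leaving out each library in turn gave 525 to 7003 calls, 254 to 3922 higher and 271 to 3081 lower. Pseudocount, scaling, trend, voom on recovered reads and the fit of all 15 libraries kept the numbers within 1.5 times. The direction of no called gene changed. For groups without overlap, the pseudocount, the trend and the fit of all 15 libraries could not change it. The cause of these moves was not tested, beyond fewer libraries or another number of genes tested.

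For generation 3 against 1, the block gave 159 calls (103 positive, 56 negative), no filter 200 (124 and 76), and leaving out a library 80 to 1088 (54 to 680 and 26 to 408). Against generation 5, the block gave 8 calls (0 and 8), a pseudocount of 0.1 18 calls (16 negative), quantile normalization 5 positive and no filter 7 positive and 18 negative, with 8 to 1782 without a library (0 to 1407 and 8 to 375). The number of genes with a G3TM range larger than the difference was 3259 with a mean FPKM of at least 5 and 15042 with no filter. Lyz2, which was not called, changed sign to −0.94 under the block and without G3TM replicate 3, and was 2.16 without G3TM replicate 1. Other genes that were not called changed sign too. Cdkn2a was 0.032 under the block, Lin52 0.062 and Phlda3 −0.11. Quantile normalization gave −0.28 for Col1a1, 0.077 for Lin52 and −0.40 for Phlda3, equal protein-coding totals −0.34 for Col1a1, −0.36 for Phlda3 and −0.15 for Terf2, and recovered reads scaled to their total −0.089 for Col1a1 and −0.10 for Phlda3. Leaving out a library gave −1.04 to 0.032 for Cdkn2a, −0.37 to 0.44 for Col1a1, −0.15 to 0.062 for Lin52 and −0.19 to 0.37 for Phlda3.

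With 3 against 2 libraries an exact permutation test of one gene cannot go below a two-sided p of 0.1, so all calls rest on the spread that limma pools over genes. Genotype, sex and the division of the libraries move together in generation 3. FPKM does not fix absolute RNA amounts, and the listed gene length enters every level.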

Other observations

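Among 99 long intergenic noncoding RNAs tested 15 were higher and 25 lower in G3TM. The 82 tested pseudogenes with a ribosomal protein symbol ending in -ps summed to 3535, 5828 and 5434 FPKM in G3TM and 3157 and 2515 FPKM in G3DM, with 34 higher and 2 lower (median 0.73). All 8 tested genes whose symbol is Rrp followed by a digit were higher, at 8.28 to 95.3 FPKM in G3TM and 0.177 to 2.58 FPKM in G3DM, and all 8 differed between generations 3 and 1. This group was picked after its values were seen.

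The muscle and macrophage markers that parted the G3TM libraries were set beside the other 10 libraries of the series. Without Acta1 and Des the muscle markers summed to 6.61 to 138 FPKM in the 10, against 515 FPKM in G3TM replicate 2 and 191 FPKM in G3TM replicate 3. With both genes they summed to 42.2 to 218 FPKM in the 10, against 658 and 297 FPKM in these G3TM libraries and 350 and 213 FPKM in G3DM. The macrophage markers summed to 10.2 to 148 FPKM in the 10, against 491 FPKM in G3TM replicate 3. In both lists the highest of the 10 was G5TM replicate 3.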
